A study of Drosophila melanogaster with 36 samples.

Results

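The genes described here encode the proteins of the large subunit of the cytosolic ribosome of Drosophila, RpL3 to RpL41 together with RpLP0, RpLP1 and RpLP2. They were taken by gene identifier and not by the value of each gene, but the list was chosen with earlier results of these data known. Of 48 genes listed, 47 have a line in the deposited table of 13820 gene identifiers, and RpL41 (CG30425) was not analysed here. All 47 could be tested, among 13791 genes tested. Expression was measured in thoraxes of flies expressing PABPN1-17ala in muscle (UAS-PABPN1-17ala/+; Mhc-Gal4/+) and of control flies that carry the driver alone (Mhc-Gal4/+), at days 2, 6 and 11. PABPN1-17ala is a mammalian poly(A) binding protein with an expanded alanine tract, as in oculopharyngeal muscular dystrophy (OPMD), and Mhc-Gal4 is a driver of muscle, while the thorax also holds other cells. The series holds 36 arrays with 2 colours, 6 for each of the 6 conditions, on which thorax RNA was compared with a common reference pooled from control flies at day 2. The thorax RNA carried Cy5 on replicates 1 to 3 and Cy3 on replicates 4 to 6. Each condition had 3 RNA extracts of 50 thoraxes, and the labels do not say which Cy5 and Cy3 arrays carry the same extract. Since the 6 arrays of a condition probably stand for 3 extracts, each measured in both dyes, 3 rather than 6 were counted as replicates in each test. For replicate 1 of PABPN1-17ala at day 2, 1 label names the control genotype and the others name PABPN1-17ala, and it was used as PABPN1-17ala. Without this array the members called were 1 for genotype at day 2, 22 in the mean over the days and 16 for day 11 over day 2 in PABPN1-17ala, against 1, 22 and 17 with it, a member being called where its adjusted p was below 0.05 in the test given with the results.

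The large subunit is the part of the ribosome that joins amino acids into a chain. It holds 1 copy of most of its proteins, bound to ribosomal RNA, with a flexible stalk that recruits the elongation factors, a catalytic centre made of RNA, and a tunnel through which the new chain leaves. Genes of ribosomal proteins are usually expressed together, under the control of nutrient and growth signals, and in Drosophila the loss of 1 copy of many of them gives the Minute phenotype of slow growth and short bristles.

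Values are log ratios, read here as log2 of thorax RNA over reference, so that 0 means the level of control flies at day 2. The sources used here do not state this direction, and it is likely rather than certain. Its basis is a reporter of GstD1 that was brighter in the diseased flies and respiratory chain genes that were listed as down-regulated. With this direction, GstD1 had log2 fold changes (PABPN1-17ala over control) of 2.17, 1.05 and 1.37 at days 2, 6 and 11, and the 9 respiratory chain genes lay between -0.98 and -0.54 at day 2. No pair of arrays with the same dye had a correlation below -0.3 over the genes. Of the pairs with different dyes, 3 of 54 within a condition and 10 of 270 between conditions did, and in control flies at day 2, the condition of the reference itself, all 9 Cy5 and Cy3 pairs were negative, from -0.49 to -0.08. Signal intensities were not used here, so the ratios give no level of a gene, levels of different genes cannot be compared, and the tissue cannot be checked by the presence of its markers. The table is normalized, so each change is relative to the other genes on the array. In whole thoraxes, fewer cells of a type and less RNA in each cell cannot be told apart. The extracts are pools. Each p-value rests on the spread between arrays of the same condition and dye, estimated jointly over all 6 conditions.

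A large share of the 47 genes had higher ratios in flies expressing PABPN1-17ala at days 6 and 11, and at day 2 RpL27 alone passed the test. The members' log2 fold changes had a median of 0.00 at day 2, against -0.01 for all genes tested. At day 6 this median was 0.57, against -0.01 for all genes. At day 11 it was 0.61, against 0.03 for all genes. A gene was called where the larger of the p-values of the Cy5 and the Cy3 fit in limma, adjusted over all genes tested, was below 0.05. By this rule 1 member was called higher at day 2 (0.667% of all genes were), 7 at day 6 (0.935% of all genes) and 15 at day 11 (0.754% of all genes). With the mean over the 3 days, 22 members were called higher, against 1.75% of all genes. In fits of the day 11 conditions alone, 0 members and 0% of all genes were called at day 11. No member was called lower in limma at day 2 (0.283% of all genes were), day 6 (0.667%) or day 11 (0.428%), or in the mean over the days (1.44%). At an unadjusted p below 0.05, 1 member was lower at day 2, RpL29 at -0.28, and 0 otherwise, and 1 was called lower at day 2 when all 36 arrays entered 1 fit. Here and below, counts at an unadjusted p are given without the share of all genes that reach it. The percentages beside them are for the adjusted p. The share of members called was 14.9% at day 6, 31.9% at day 11 and 46.8% in the mean.

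The groups can also be compared without a model. At day 2, 2 members had every measured PABPN1-17ala array above the control arrays of the same dye, against 1.91% of all genes. At day 6 there were 27 such members, against 5.78% of all genes. At day 11 there were 20, against 2.16% of all genes, and for 1 of these, RpL34a, only 5 PABPN1-17ala arrays were measured. Both dyes gave a log2 fold change above 0 at both day 6 and day 11 for 33 of the 47 members, and 25 members were above 0.5 at both days. Log2 fold changes above 1, a doubling, were seen for 1 member at day 6 (RpL4) and for 16 members at day 11. These counts by sign and size are a description, without the share of all genes beside them.

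**Figure D1:**
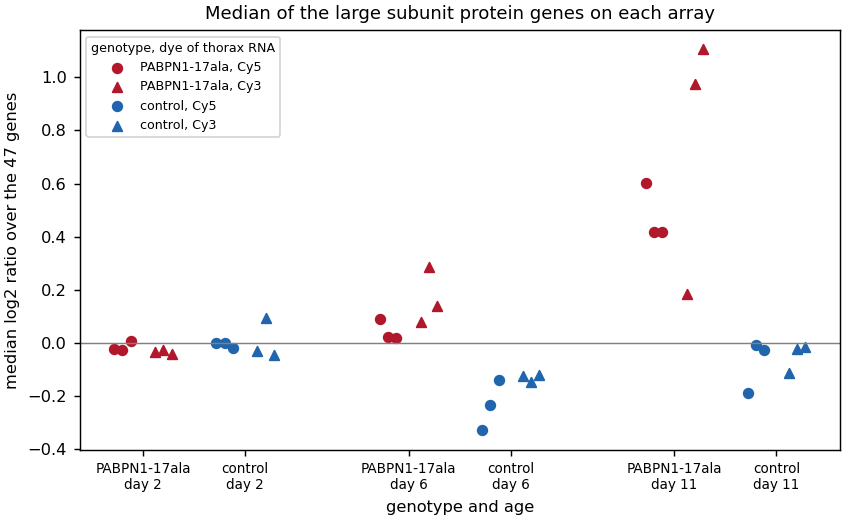
Median log2 ratio to the reference over the 47 large subunit protein genes, on each of the 36 arrays; circles are arrays with thorax RNA in Cy5 and triangles arrays with it in Cy3. At days 6 and 11 every PABPN1-17ala array lies above every control array of the same day, and on the Cy3 arrays of PABPN1-17ala at day 11 replicate 4 lies at 0.18, below 0.98 and 1.11.

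The plot of array medians shows both genotypes around 0 at day 2, with -0.04 to 0.01 on PABPN1-17ala arrays and -0.04 to 0.09 on control arrays. At day 6 the medians were 0.02 to 0.28 on PABPN1-17ala arrays and -0.33 to -0.12 on control arrays. At day 11 they were 0.18 to 1.11 on PABPN1-17ala arrays and -0.19 to -0.01 on control arrays. At day 6 the medians of PABPN1-17ala arrays were above 0 and those of control arrays below it, and at day 11 the PABPN1-17ala arrays spread widely above 0. The lowest PABPN1-17ala array at day 11 was replicate 4, and without it 20 members were called higher at day 11 instead of 15. Without control replicate 4 the count at day 11 was 5, without PABPN1-17ala replicate 5 it was 4 and without PABPN1-17ala replicate 6 it was 5, and at day 6 leaving out 1 array gave 4 or 5. Throughout, counts without 1 array are given without the share of all genes called in the same fits.

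The 47 genes did not move as 1 block. Ordered by the mean log2 fold change over the 3 days, they fell into a lower set of 21 genes, from -0.11 to 0.20, and an upper set of 26 genes, which reached 0.85. The step of 0.17 above RpL36, the highest gene of the lower set, was the largest between neighbours, and no other step was above 0.08. This split was drawn from the values and is a description. In the upper set the median log2 fold change was 0.05 at day 2, 0.66 at day 6 and 1.18 at day 11. In the lower set it was -0.06 at day 2, 0.01 at day 6 and 0.09 at day 11. Single genes of the lower set ran from -0.18 to 0.61 at day 11. At day 6 RpL26 of this set had every PABPN1-17ala array above the control arrays of its dye (5.78% of all genes did). At day 11 RpL34a and RpL36 of this set had every measured PABPN1-17ala array above them (2.16% of all genes did). By the rule above all members called belonged to the upper set, and this split was made on the fold changes that the rule tests. When all 36 arrays entered 1 fit, 28 members were called at day 11 (9.8% of all genes were), more than the upper set holds.

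Within conditions, the SD of the ratio had a median of 0.26 in the upper set and 0.13 in the lower set, against 0.13 for all genes tested. RpL35A was the most variable gene of the lower set, with an SD within conditions of 0.71. Its dyes disagreed at day 11, where the log2 fold change was 1.14 on Cy5 arrays and -1.49 on Cy3 arrays, and 1 of its values, for PABPN1-17ala, is empty. Both sets have genes on each of the 5 large chromosome arms: 3, 7, 7, 5 and 4 genes of the upper set on X, 2L, 2R, 3L and 3R, and 3, 5, 3, 5 and 5 of the lower set. RpL12 and RpL39, whose annotated loci overlap at their ends on 2R in release 6 of the fly genome, lay far apart, with mean log2 fold changes of 0.75 for RpL12 and -0.07 for RpL39. Whether the probes of the lower set carry enough signal to follow their genes was not tested, since intensities were not used.

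**Figure D2:**
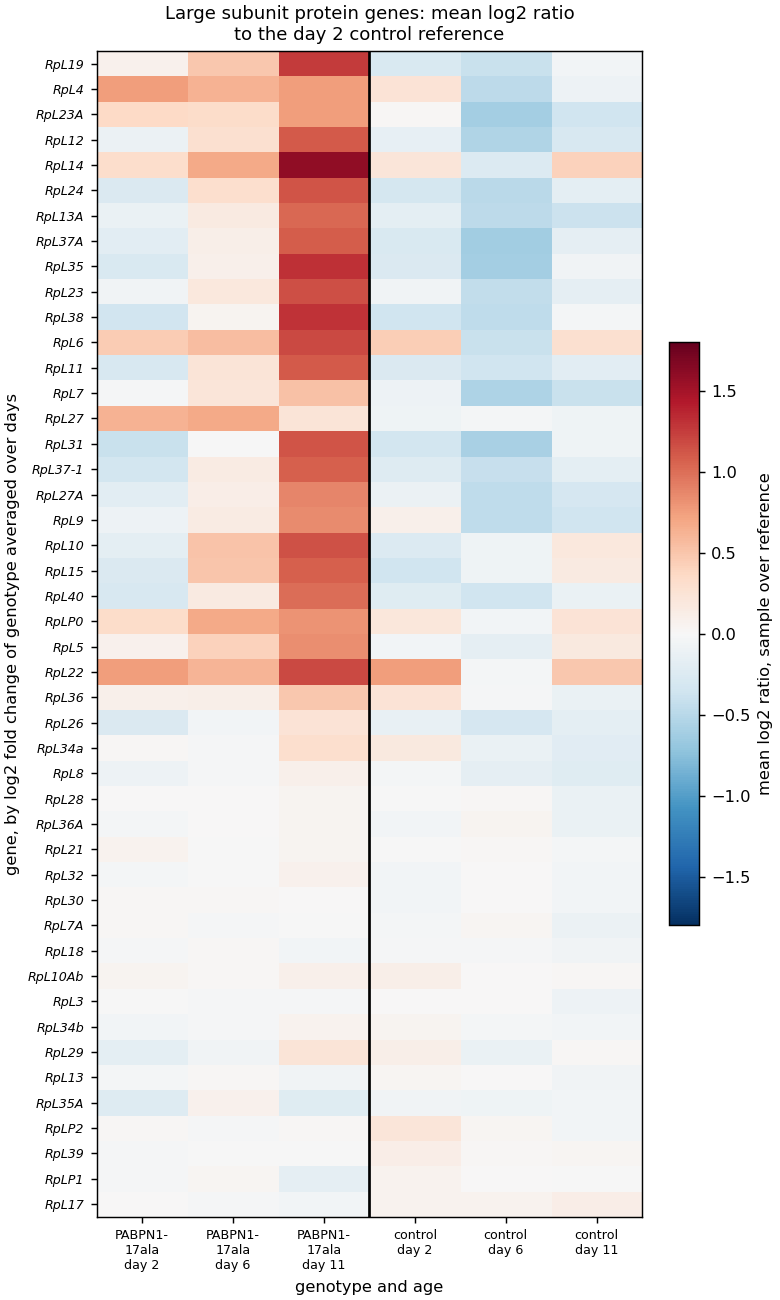
Mean log2 ratio to the day 2 control reference (colour, red above and blue below 0) for 46 of the genes (rows, by mean log2 fold change of genotype) in each genotype and age (columns, PABPN1-17ala left of the line, control right of it). The upper 25 rows are red in PABPN1-17ala at day 11, RpL27 only faintly, and most are pale blue in control at day 6, and most of the lower 21 rows are near 0 in all columns.

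At the stalk and the binding site of the elongation factors, 3 of 6 genes were called higher in the mean over the 3 days, and their median log2 fold change was -0.07 at day 2, 0.56 at day 6 and 0.84 at day 11. RpLP0 (CG7490) encodes the base of the stalk. At day 6 its ratios were 0.32, 0.44 and 0.22 on Cy5 and 0.97, 1.05 and 1.12 on Cy3 arrays of PABPN1-17ala, against -0.15, -0.30 and -0.23 on Cy5 and 0.15, 0.02 and 0.19 on Cy3 arrays of control. All 6 PABPN1-17ala arrays were above the control arrays at this day. The log2 fold change was 0.74 (adjusted p 0.00993 in limma), with 0.55 (SE 0.08) on Cy5 and 0.93 (SE 0.18) on Cy3. This call was lost without any 1 of 2 of the 12 arrays, with adjusted p up to 0.0517 in limma. At day 2 RpLP0 ranged from 0.17 to 0.54 in PABPN1-17ala and from 0.08 to 0.28 in control. At day 11 it ranged from 0.40 to 1.29 in PABPN1-17ala and from 0.00 to 0.48 in control, a log2 fold change of 0.56 that did not pass the test (adjusted p 0.0801 in limma).

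RpLP1 (CG4087) and RpLP2 (CG4918), the acidic proteins that sit on RpLP0 and contact the elongation factors, were not called at any day. RpLP1 lay between -0.45 and 0.15 on the 18 PABPN1-17ala arrays and between -0.36 and 0.64 on the control arrays, and its log2 fold changes were -0.08, 0.02 and -0.17 at days 2, 6 and 11. RpLP2 lay between -0.36 and 0.47 on PABPN1-17ala arrays and between -0.87 and 0.73 on control arrays, with log2 fold changes of -0.20, -0.05 and 0.06. The difference between RpLP0 and these genes was not tested.

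RpL9 (CG6141), next to the RNA loop that the elongation factors touch, was called at day 6 and day 11. Its ratios at day 11 were 1.14, 0.86 and 0.76 on Cy5 and 0.27, 0.98 and 1.08 on Cy3 arrays of PABPN1-17ala, against -0.36, -0.39 and -0.29 on Cy5 and -0.64, -0.14 and -0.32 on Cy3 arrays of control. The groups did not overlap, and the log2 fold change was 1.21 (adjusted p 0.0025 in limma), with 1.27 (SE 0.11) on Cy5 and 1.15 (SE 0.17) on Cy3. At day 6 the gene ranged from -0.06 to 0.45 in PABPN1-17ala and from -0.63 to -0.29 in control, a log2 fold change of 0.61 (adjusted p 0.0431 in limma). This call at day 6 was lost without any 1 of the 12 arrays of that day, with adjusted p from 0.0524 to 0.208. At day 2 it ranged from -0.17 to -0.02 in PABPN1-17ala and from -0.15 to 0.51 in control, with a log2 fold change of -0.18. RpL12 (CG3195), at the foot of the stalk, had log2 fold changes of 0.04, 0.83 and 1.39 and was called at day 11 (adjusted p 0.0383 in limma). RpL40 (CG2960), made as a fusion with ubiquitin, had 1.11 at day 11 but its 6 arrays of control spread from -1.51 to 1.39 there, and it was called in no comparison.

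Around the 5S RNA, 3 of 4 genes were called higher at day 11. RpL5 (CG17489) and RpL11 (CG7726), which carry the 5S RNA into the ribosome, had log2 fold changes at day 11 of 0.67 for RpL5 (adjusted p 0.0468 in limma) and 1.29 for RpL11 (adjusted p 0.023). RpL10 (CG17521) joins the subunit late in its assembly, close to the site of the transfer RNA. At day 11 its ratios were 0.95, 0.52 and 1.48 on Cy5 and 0.99, 1.29 and 1.67 on Cy3 arrays of PABPN1-17ala, against -0.34, 0.21 and 0.15 on Cy5 and 0.36, 0.18 and 0.60 on Cy3 arrays of control. This log2 fold change was 0.96 (adjusted p 0.0268 in limma). The call was lost without any 1 of 3 of the 12 arrays, with adjusted p up to 0.117 in limma. It was also lost under 4 other settings. RpL10 ranged from 0.01 to 1.04 in PABPN1-17ala and from -0.45 to 0.21 in control at day 6, and from -0.64 to 0.24 in PABPN1-17ala and from -0.91 to 0.36 in control at day 2. RpL21 (CG12775) had log2 fold changes between -0.02 and 0.09 at the 3 days. RpL10Ab (CG7283), the protein of the L1 stalk through which spent transfer RNA leaves, had -0.06, 0.01 and 0.07.

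Of the 5 genes at the catalytic centre and the wall of the exit tunnel, RpL4 alone was called. RpL4 (CG5502) reaches into the tunnel at its narrowest point, and at day 6 its ratios were 0.28, 0.37 and 0.11 on Cy5 and 1.00, 1.00 and 0.99 on Cy3 arrays of PABPN1-17ala, against -0.54, -0.58 and -1.29 on Cy5 and -0.12, -0.15 and -0.14 on Cy3 arrays of control. It had the highest log2 fold change of the members at this day, 1.10 (adjusted p 0.00414 in limma), with 1.06 (SE 0.18) on Cy5 and 1.14 (SE 0.10) on Cy3. In PABPN1-17ala the ratios differed between dyes by more than between replicates, and within each dye the groups did not overlap. At day 2 RpL4 ranged from 0.51 to 1.03 in PABPN1-17ala and from 0.05 to 0.52 in control (log2 fold change 0.50, adjusted p 0.829 in limma). At day 11 it ranged from 0.16 to 1.27 in PABPN1-17ala and from -0.45 to 0.32 in control (0.85, adjusted p 0.107). Both dyes were above 0 at each day, and over the 3 days its log2 fold change was 0.82 (adjusted p 0.00047).

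The other 4 genes of this site lay near 0. RpL17 (CG3203), also in the tunnel wall, had the lowest mean log2 fold change of the 47 members, -0.11. Its ratios lay between -0.15 and 0.07 on PABPN1-17ala arrays and between -0.47 and 0.83 on control arrays. RpL39 (CG3997), a very small protein of the same wall, lay between -0.09 and 0.08 on PABPN1-17ala arrays and between -0.29 and 0.55 on control arrays, and its log2 fold changes were -0.14, -0.03 and -0.03. RpL3 (CG4863) and RpL8 (CG1263), which border the catalytic centre, had mean log2 fold changes of 0.01 for RpL3 and 0.14 for RpL8.

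Where the tunnel opens, 4 of 6 genes were called at day 11, and the median log2 fold change was -0.01 at day 2, 0.68 at day 6 and 1.16 at day 11. RpL19 (CG2746), which also reaches over to the small subunit, had the highest mean log2 fold change of all members, 0.85 (adjusted p 0.00265 in limma). At day 11 its ratios were 1.17, 0.87 and 1.35 on Cy5 and 0.77, 1.66 and 1.75 on Cy3 arrays of PABPN1-17ala, against -0.64, -0.08 and -0.21 on Cy5 and 0.46, -0.48 and 0.63 on Cy3 arrays of control. Its log2 fold changes were 0.34 at day 2, 0.89 at day 6 (adjusted p 0.0598) and 1.32 at day 11 (adjusted p 0.0325). The call at day 11 was lost without any 1 of 4 of the 12 arrays, with adjusted p up to 0.19 in limma. It was also lost under 4 other settings. RpL19 and RpL27 were the members whose 6 PABPN1-17ala arrays were all above the control arrays of their dye at day 2. At that day RpL19 ranged from -0.08 to 0.43 in PABPN1-17ala and from -0.48 to 0.00 in control, and at day 6 from 0.26 to 0.74 in PABPN1-17ala and from -0.66 to -0.25 in control.

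RpL23A (CG7977), a docking site for factors that receive the new chain, was called at both days. At day 6 its ratios were 0.06, 0.04 and -0.01 on Cy5 and 0.43, 0.81 and 0.61 on Cy3 arrays of PABPN1-17ala, against -1.08, -0.71 and -0.71 on Cy5 and -0.48, -0.36 and -0.35 on Cy3 arrays of control. At day 11 they were 0.45, 0.19 and 0.43 on Cy5 and 0.85, 1.23 and 1.38 on Cy3 arrays of PABPN1-17ala, against -1.05, -0.42 and -0.70 on Cy5 and 0.23, -0.26 and 0.05 on Cy3 arrays of control. The PABPN1-17ala arrays at day 6 were close to the reference on Cy5, so that most of the difference there lay in low control arrays. The log2 fold change was 0.94 at day 6 (adjusted p 0.0045 in limma) and 1.11 at day 11 (adjusted p 0.0025), with 1.08 (SE 0.15) on Cy5 and 1.15 (SE 0.17) on Cy3 at day 11. At day 2 RpL23A ranged from -0.09 to 0.56 in PABPN1-17ala and from -0.61 to 0.64 in control. RpL35 (CG4111) and RpL31 (CG1821), also at the tunnel exit, had log2 fold changes at day 11 of 1.38 for RpL35 (adjusted p 0.0233) and 1.22 for RpL31 (adjusted p 0.0469). RpL22 (CG7434), which in Drosophila has an added histone-like end, had 0.70 at day 11 and RpL26 (CG6846) 0.42, and neither was called.

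**Figure D3:**
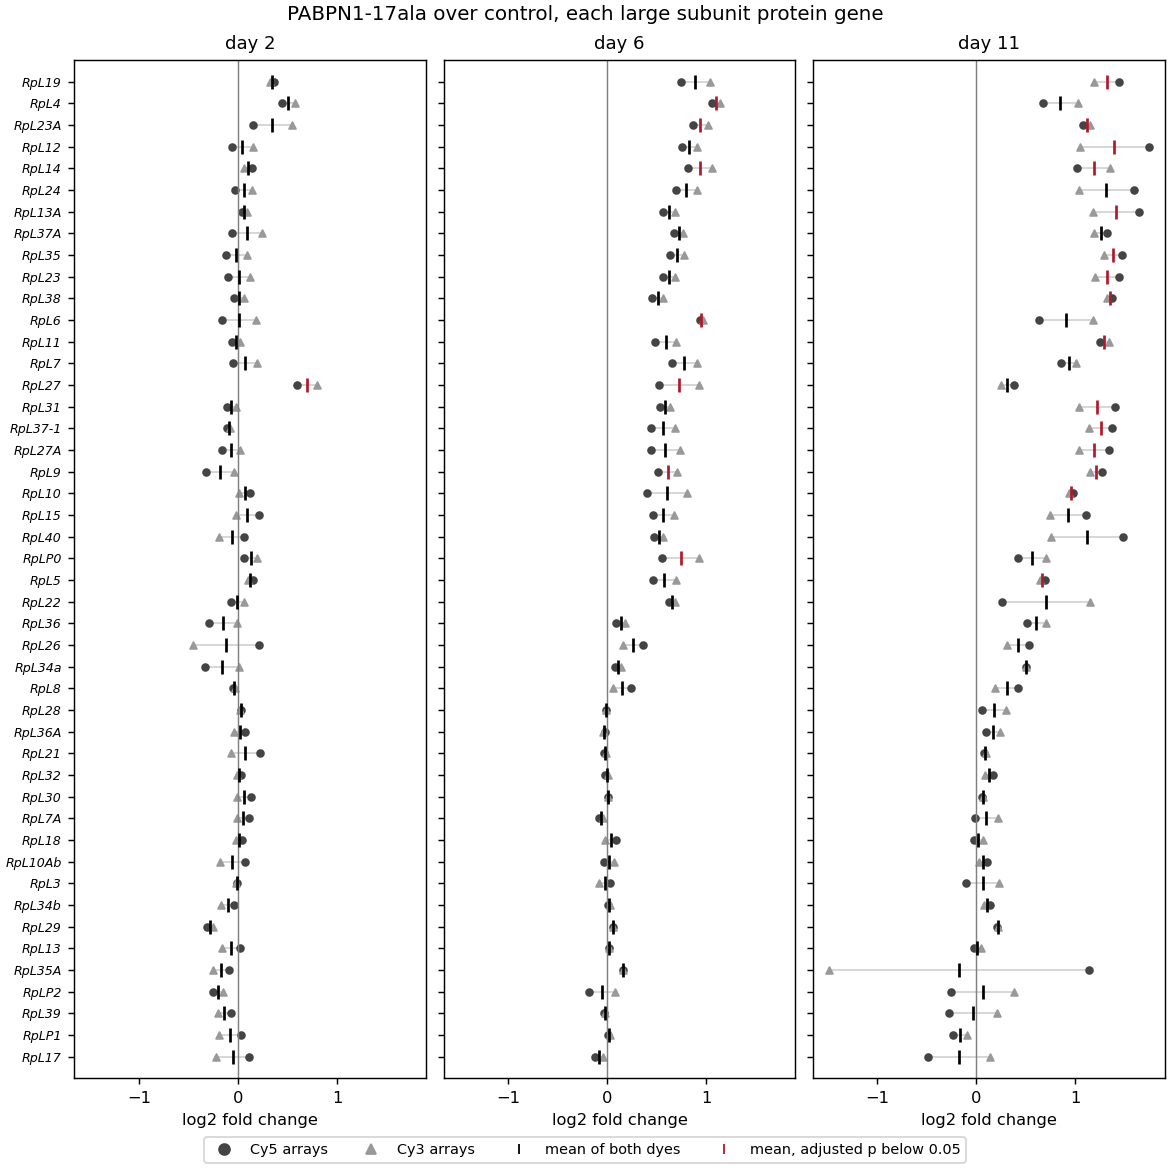
Log2 fold change of PABPN1-17ala over control (horizontal axis) for 46 of the genes at days 2, 6 and 11; circles show Cy5 arrays, triangles Cy3 arrays and bars their mean, red where the adjusted p is below 0.05. At day 2 only RpL27 is red, at day 6 the upper 25 genes form a group at 0.51 to 1.10, and at day 11 they spread from 0.31 to 1.41.

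Among the proteins that bridge to the small subunit, RpL23 (CG3661) had log2 fold changes of 0.00, 0.62 and 1.32 and was called at day 11 (adjusted p 0.00892 in limma). RpL24 (CG9282) had 0.06, 0.79 and 1.31 and was called in the mean over the 3 days (adjusted p 0.0398). RpL30 (CG10652) had 0.06, 0.00 and 0.06. RpL23 and RpL24 were thus in the upper set and RpL30 in the lower.

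For some proteins the genome holds 2 gene copies. Of the RpL34 pair, RpL34a (CG6090) ranged at day 11 from 0.02 to 0.68 over 5 arrays of PABPN1-17ala, with replicate 6 empty, and from -0.44 to 0.09 in control, while RpL34b (CG9354) ranged from -0.03 to 0.19 in PABPN1-17ala and from -0.18 to 0.03 in control. The log2 fold change was 0.50 for RpL34a and 0.10 for RpL34b, and neither was called. At day 6 RpL34a ranged from -0.15 to 0.13 in PABPN1-17ala and from -0.26 to -0.02 in control. RpL37-1 (CG9091, named RpL37a in older annotation) was called at day 11 with 1.25 (adjusted p 0.011 in limma), and its copy RpL37-2, which is no member of the list, had 0.11. Of the 6 large subunit paralogs outside the list that were tested, none was called at a single day in limma (at days 2, 6 and 11, 1, 0 and 1 had an unadjusted p below 0.05), and RpL7-like was called higher in the mean, with 0.30 (adjusted p 0.00685). The probes of near-identical copies may share signal, which was not tested.

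Of the remaining 19 genes, 4 were called at day 11 and 8 in the mean over the 3 days. RpL27 (CG4759) was the member called at day 2, and it was called again at day 6 but not at day 11. Its ratios at day 2 were 0.51, 0.84 and 0.64 on Cy5 and 0.54, 0.79 and 0.41 on Cy3 arrays of PABPN1-17ala, against 0.12, 0.12 and -0.03 on Cy5 and -0.10, -0.42 and -0.11 on Cy3 arrays of control. All PABPN1-17ala arrays were above all control arrays, and the log2 fold change was 0.69 (adjusted p 0.0234 in limma), with 0.59 (SE 0.12) on Cy5 and 0.79 (SE 0.15) on Cy3. The call at day 2 was lost without any 1 of 7 of the 12 arrays, with adjusted p up to 0.133, and also when only the conditions compared were fitted or variances were not moderated. At day 6 RpL27 was at 0.33, 0.31 and 0.81 on Cy5 and 0.61, 0.85 and 1.22 on Cy3 arrays of PABPN1-17ala, against -0.15, 0.02 and 0.00 on Cy5 and 0.07, -0.07 and -0.11 on Cy3 arrays of control (log2 fold change 0.73, adjusted p 0.035), a call lost without any 1 of 4 of the 12 arrays. At day 11 it ranged from 0.06 to 0.38 in PABPN1-17ala and from -0.26 to 0.03 in control, with a log2 fold change of 0.31. The change from day 2 to day 11 in its log2 fold change was -0.38, where the median of the members was 0.66, and did not pass the test.

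RpL14 (CG6253), an RNA-binding protein of the subunit surface, had the highest mean ratio of the members in PABPN1-17ala at day 11. Its ratios were 1.43, 1.10 and 1.51 on Cy5 and 1.70, 1.81 and 2.01 on Cy3 arrays of PABPN1-17ala, against -0.30, 0.67 and 0.62 on Cy5 and 0.30, 0.13 and 1.04 on Cy3 arrays of control. The control arrays spread over more than 1 log2 unit, and within each dye all PABPN1-17ala arrays were above them. The log2 fold change was 1.18 (adjusted p 0.016 in limma) at day 11, and 0.94 (adjusted p 0.0478) at day 6, when RpL14 ranged from 0.28 to 1.15 in PABPN1-17ala and from -0.44 to -0.03 in control. The call at day 6 was lost without any 1 of the 12 arrays, with adjusted p from 0.0541 to 0.272, and under 4 other alternatives. That at day 11 was lost without any 1 of 2 of the 12 arrays, with adjusted p up to 0.0656 in limma. It was also lost under 4 other alternatives. At day 2 RpL14 ranged from 0.09 to 0.54 in PABPN1-17ala and from -0.06 to 0.56 in control. RpL27A (CG15442) was at 1.15, 0.98 and 0.81 on Cy5 and 0.21, 0.98 and 1.14 on Cy3 arrays of PABPN1-17ala at day 11, against -0.68, -0.17 and -0.21 on Cy5 and -0.56, -0.04 and -0.17 on Cy3 arrays of control. Its log2 fold change was 1.18 (adjusted p 0.00868), and at day 6 it was 0.59 (adjusted p 0.221), with -0.05 to 0.34 in PABPN1-17ala and -0.52 to -0.30 in control. The call of RpL27A at day 11 was lost without any 1 of 3 of the 12 arrays, with adjusted p up to 0.0584 in limma. It was also lost under 1 other alternative. RpL13A (CG1475) and RpL38 (CG18001) had log2 fold changes of 1.41 for RpL13A (adjusted p 0.0153), the highest of the members at day 11, and 1.35 for RpL38 (adjusted p 0.0219).

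RpL15 (CG17420) was the member with the highest day 11 over day 2 change in control flies, 0.51, which did not pass the test. At day 11 it ranged from 0.66 to 1.64 in PABPN1-17ala and from -0.58 to 0.88 in control, a log2 fold change of 0.92 that was not called (adjusted p 0.178 in limma). RpL32 (CG7939), known as rp49, is a common control gene for RT-qPCR in flies. In this study its mRNA was measured by RT-qPCR as a negative control, and its DNA served to normalize mitochondrial DNA. The ratios of RpL32 lay between -0.19 and 0.48 on PABPN1-17ala arrays and between -0.50 and 0.17 on control arrays, with log2 fold changes of 0.01, -0.01 and 0.13. RpL6 (CG11522) was called at day 6 (0.95, adjusted p 0.0117).

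**Figure D4:**
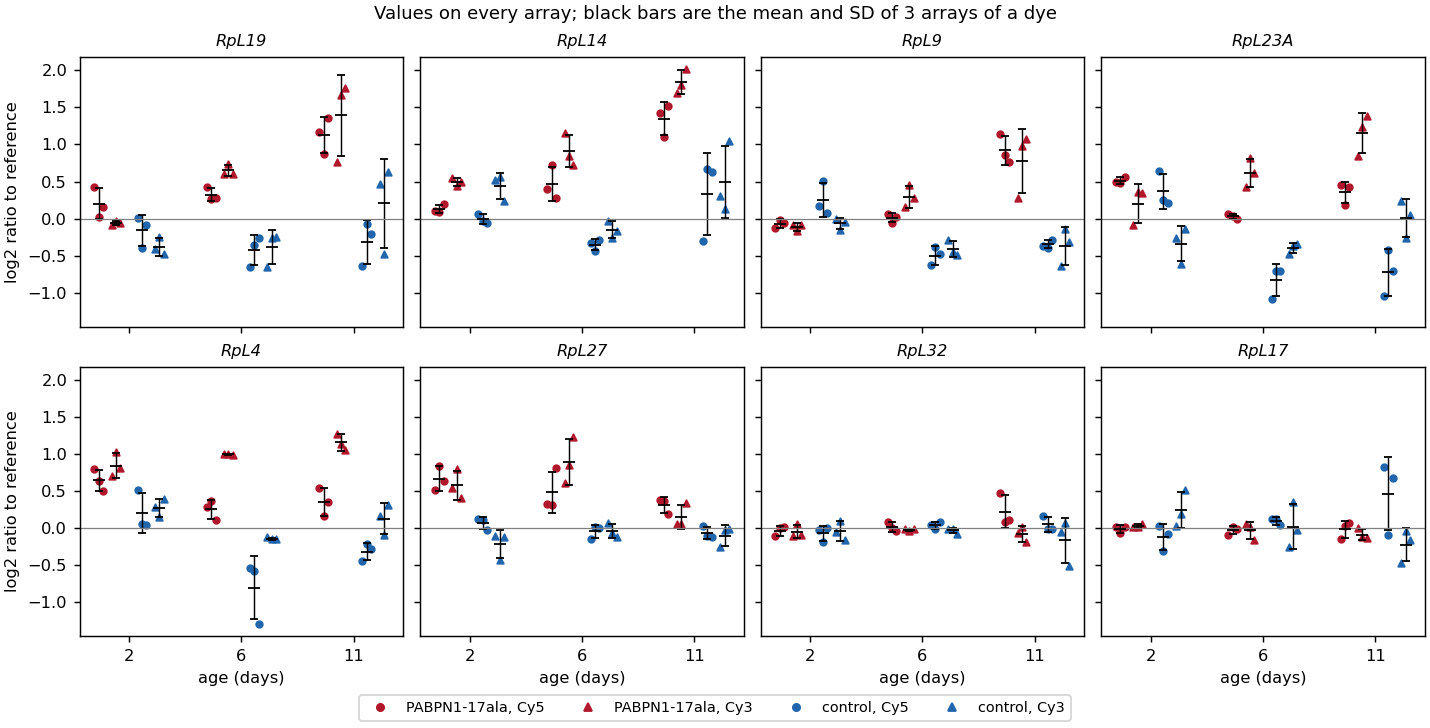
Log2 ratio to the reference (vertical axis) on every array for 8 genes, by age; PABPN1-17ala in red is left of control in blue at each age, circles are Cy5 and triangles Cy3 arrays, and black bars give the mean and SD of 3 arrays of a dye. RpL19, RpL14 and RpL9 lie highest in PABPN1-17ala at day 11, RpL27 at days 2 and 6, and RpL32 and RpL17 are near 0 in PABPN1-17ala at days 2 and 6, with RpL17 spreading from -0.47 to 0.83 in control at day 11.

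Days were also compared within each genotype, to describe the change with age in each. The absence of calls in a genotype does not show that it stayed unchanged. In flies expressing PABPN1-17ala, 17 members were called higher at day 11 than at day 2 (2.13% of all genes were), 0 lower (1.81% of all genes, with 1 member lower at an unadjusted p below 0.05 in limma), and the median log2 change was 0.44. The largest of these were 1.65 for RpL38 (adjusted p 0.000415), 1.59 for RpL35 (adjusted p 0.000566) and 1.54 for RpL31 (adjusted p 0.00036). Between day 6 and day 11, 3 members were called higher (0.522% of all genes), which were RpL31 at 1.14, RpL38 at 1.26 and RpL14 at 0.91, and 0 lower (0.435% of all genes, with 0 at an unadjusted p below 0.05). These 3 calls rested on single arrays: without replicate 4 of day 11 the count was 14, and it was 0 or 1 without any other array of either day but replicate 3 of day 11. Between day 2 and day 6, 0 were called in limma in either direction (1.78% of all genes), with 4 at an unadjusted p below 0.05 and a median log2 change of 0.11.

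In control flies no member was called in limma in any pair of days. From day 2 to day 6 the median log2 change was -0.14, 0.58% of all genes were called, and 4 members had an unadjusted p below 0.05, all lower at day 6. From day 6 to day 11 the median was 0.14, 0.145% of all genes were called, and 4 members had an unadjusted p below 0.05. From day 2 to day 11 the median was -0.08, 1.55% of all genes were called, and 1 member had an unadjusted p below 0.05. Without moderated variances these counts were also 0, and in 1 fit of all 36 arrays they were 6, 2 and 4. That 1 fit called 4.22%, 3.38% and 9.4% of all genes. The lowest control values at day 6 relative to day 2 were -0.84 for RpL6, -0.79 for RpL22 and -0.71 for RpL4. Between days 2 and 11, RpL4 had log2 changes of 0.01 in PABPN1-17ala and -0.33 in control, RpL23A 0.40 in PABPN1-17ala and -0.37 in control, and RpL9 0.94 in PABPN1-17ala and -0.45 in control, of which the change of RpL9 in PABPN1-17ala alone was called (adjusted p 0.00439). All these contrasts share arrays, so they are not independent of the comparisons at each day.

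The change in the effect of genotype with age was tested as a difference of differences. Between day 2 and day 11, 1 member was called (0.29% of all genes in either direction): for RpL9 the log2 fold change was larger by 1.39 at day 11 (adjusted p 0.0444 in limma). This call was lost without any 1 of 13 of the 24 arrays, and without PABPN1-17ala replicate 4 of day 11 the members called were 13. The median difference over the members was 0.66, against 0.05 for all genes, and 22 members had an unadjusted p below 0.05, all higher at day 11. Between day 2 and day 6, 0 members were called (0.239% of all genes), with 9 at an unadjusted p below 0.05 and a median of 0.47. Between day 6 and day 11, 0 were called (0.0435% of all genes), with 1 at an unadjusted p below 0.05 and a median of 0.16. The shares of all genes given for these changes are for the adjusted p, so they are no yardstick for the unadjusted counts.

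Other genes of translation were taken from lists by symbol. Of 37 genes of the cytosolic small subunit, 8 were called higher at day 6, 15 at day 11 and 18 in the mean over the 3 days, and 0 lower, with medians of 0.04, 0.62 and 0.93 at days 2, 6 and 11. Within this list too, the genes fell into a part near 0 and a part well above it. Among them RpS5a had 1.45 at day 11 and RpS26 1.32. RpS2, known as sop and used in this study for RT-qPCR normalization, had log2 fold changes of -0.05, 0.38 and 0.49, none of them called. For 44 genes of the mitochondrial large subunit, the medians were -0.16, -0.07 and 0.15, with 2 called lower at day 2 (mRpL28 and mRpL49) and 0 called at days 6 and 11 in limma, where 2 (all lower) and 6 (all higher) had an unadjusted p below 0.05. Of 8 elongation factor genes, 0 were called at a single day in limma (2, 1 and 2 at an unadjusted p below 0.05), and eEF5 was higher in the mean, at 0.48 (adjusted p 0.0115).

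**Figure D5:**
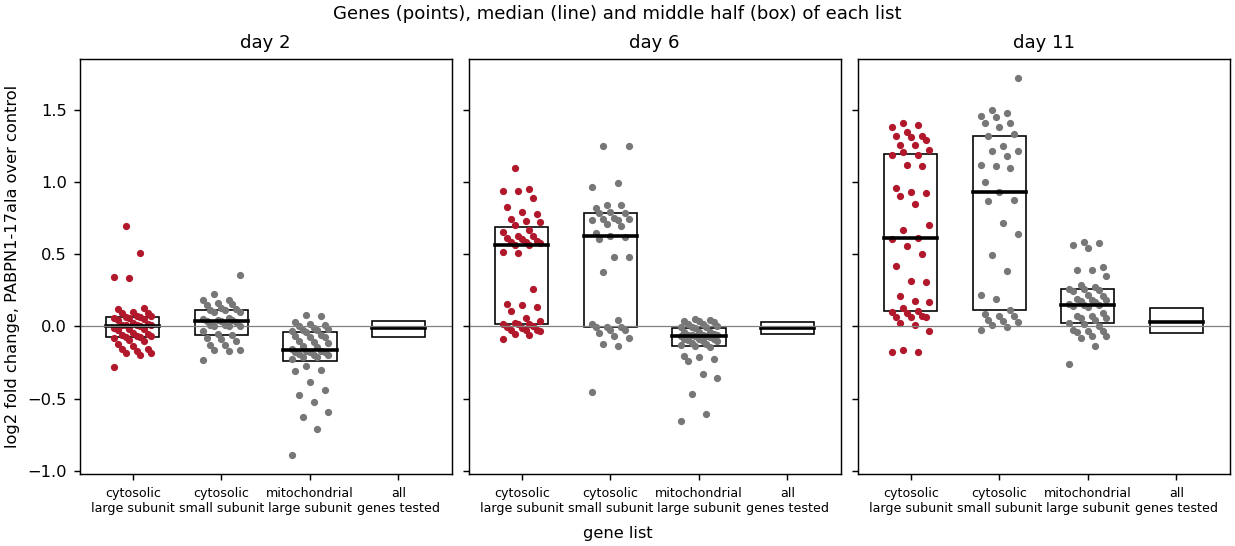
Log2 fold change of PABPN1-17ala over control (vertical axis) for genes of the cytosolic large subunit (red points), the cytosolic small subunit and the mitochondrial large subunit (grey points), with the median (line) and the interquartile range (box) of each list and of all genes tested. At days 6 and 11 genes of both cytosolic subunits lie partly near 0 and partly at 0.5 and above, and the median of the mitochondrial large subunit is -0.07 at day 6 and 0.15 at day 11.

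Markers of the cells of the thorax moved with genotype in part. Of 13 muscle genes tested, TpnC4, a troponin C of flight muscle, was called lower at day 6, with -1.84 (adjusted p 0.000309 in limma), and fln, a protein of the thick filament of flight muscle, was called lower in the mean, with -1.27 (adjusted p 0.00185), together with TpnC4. The median of the muscle list was 0.07 at day 2, -0.17 at day 6 and -0.19 at day 11. By age, the median of the muscle list was lower at day 11 in both genotypes: between days 2 and 11, when 17 members were called higher in PABPN1-17ala, its median log2 change was -1.48 in PABPN1-17ala, with 8 of 13 called lower, and -1.41 in control, with 5 called lower. Between the same days, 1 fat body gene was called lower in PABPN1-17ala and 1 higher in control, 2 tracheal and cuticle genes were called lower in each genotype, and no gene of the neuron, haemocyte, gut and germ line lists was called in limma (at an unadjusted p below 0.05, 1 neuron gene was lower in PABPN1-17ala and 2 germ line or yolk genes in control). Of the other lists, none of 7 fat body, 9 neuron, 6 haemocyte, 6 gut, 6 tracheal and cuticle and 4 germ line and yolk genes was called at any day in limma; at an unadjusted p below 0.05 they were 1 fat body, 1 neuron, 2 gut and 1 tracheal or cuticle gene at day 11, and 0 at days 2 and 6. At day 11 the gut genes betaTry at 1.93 and Jon65Aiii at 1.49, the yolk gene Yp1 at 1.29 and the fat body gene apolpp at -1.17 had the largest values. At day 6, when 27 members were above control on all arrays, all 7 fat body genes lay between -0.22 and -0.06 and the gut genes between -0.52 and 0.03. The part of these cells in the values of the ribosomal genes was not tested.

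Over the 6 condition means, the genes outside the list most like the median of the members were Obp58d (Pearson r = 0.998 over 6 conditions), CG6878 (0.997), CG32453 (0.995), BomS3 (0.994) and PIG-X (0.992). CG6878 reached 1.28 and BomS3, a secreted peptide of the immune response, 1.27 in PABPN1-17ala at day 11, where the members had a median of 0.75. Obp58d, CG32453 and PIG-X reached only 0.07, 0.13 and 0.07, so their shape was alike on a much smaller scale. With 6 points that share the reference, this is a description.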

How the data were processed

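The authors deposited 1 table of normalized log ratios, taken here as log2 of thorax RNA over reference, with 1 value for each gene and array. Per the labels, RNA was amplified with an oligo(dT)-based kit and labelled with Cy3 or Cy5. The background correction, normalization, log base and genome build are not given in the sources used here. The values run from -4.81 to 4.52, and 933 are empty, 644 of them on PABPN1-17ala replicate 6 at day 11, where 3 members are empty. Of 13843 lines, 23 hold no fly gene. Symbols came from the annotation of release 6, by locus tag for 12047 identifiers and by synonym for 1153, and 620 were not paired.

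A gene was tested if at least 2 of 3 arrays had a value in every condition for either dye (13791 genes). Cy5 and Cy3 arrays, 18 each, entered separate limma fits (version 3.58.1, R 4.3.3) with 6 condition means. Log2 fold changes were averaged over the dyes, and the higher p-value was kept, or 1 where the dyes gave opposite signs, and adjusted by Benjamini-Hochberg over all genes, with a threshold of 0.05. The procedure was tested on simulated data. Other fits, scalings and thresholds, and fits without each array in turn, were tried for all 13 contrasts. The number of arrays limits the precision.

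The members, lists and tests were chosen with earlier results of these data known. Values by array, or only their ranges, are given for the 8 called members with the smallest adjusted p for genotype, the 3 highest and 3 lowest in the mean log2 fold change, the 2 highest and 2 lowest in control flies between days 2 and 11, and for RpL32, the stalk proteins and the RpL34 pair (17 genes). A member gene enters the counts and medians and is not reported by name here. Sequences and promoter motifs were not analysed here.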

Additional observations from a re-analysis of the deposited data

Results flagged for a closer look

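Among 108 groups of 6 arrays checked for a value far from the other 5, after the mean difference between dyes was removed, 5 stood apart, and chance gives about 1 in 20 groups. RpL23A was lowest on control replicate 1 at day 6, at -1.08. RpL4 was lowest on control replicate 3 at day 6, at -1.29. RpLP1 was highest on control replicate 1 at day 11, at 0.64. RpL32 was highest on PABPN1-17ala replicate 1 at day 11, at 0.48, and lowest on control replicate 6 at day 11, at -0.50. RpL9 differed between ages in its effect of genotype: the log2 fold change of PABPN1-17ala over control was larger by 1.39 at day 11 than at day 2 (adjusted p 0.0444 in limma). Its array values at day 11 and its ranges at day 2 are given above.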

How the results depend on the processing

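The median log2 fold change of the members kept its direction at day 6, at day 11 and in the mean over the days under every alternative. Leaving out 1 array gave 0.51 to 0.58 at day 6, 0.53 to 0.70 at day 11 and 0.43 to 0.48 in the mean. The other alternatives gave 0.44 to 0.71, 0.44 to 0.70 and 0.40 to 0.50. How many members passed the test depended on how arrays were counted. In 1 fit of all 36 arrays, with 6 counted as replicates, the members called for PABPN1-17ala over control were 3 at day 2 (2 higher, 1 lower), 23 at day 6 and 28 at day 11. For the change in the effect of genotype this fit called 6 between days 2 and 6, 5 between days 6 and 11, and 23 between days 2 and 11. Of all genes it called 1.7%, 2.97% and 6.03% for these changes. Between days within PABPN1-17ala it called 4, 21 and 26 for days 6 over 2, 11 over 6 and 11 over 2, and within control 6, 2 and 4. Of all genes it called 6.88%, 8.03% and 13% within PABPN1-17ala, and 4.22%, 3.38% and 9.4% within control. For day 11 over 2 in control the share of members called, 8.51%, was below that of all genes. With arrays 1 and 4, 2 and 5, and 3 and 6 averaged as assumed pairs, 2 members were called at day 2, then 22 at day 6, then 27 at day 11, as were 5, 2 and 22 for the changes in effect, 6, 22 and 28 within PABPN1-17ala and 6, 3 and 5 within control, in the same order. Of all genes 1.46%, 2.76% and 5.74% were called for the changes in effect. The shares of all genes were 6.48%, 7.58% and 12.9% within PABPN1-17ala, and 3.89%, 4.21% and 10.7% within control. Cy5 arrays alone gave 14 at day 6 and 27 at day 11, then 2, 9 and 17 for the changes in effect, 2 and 17 within PABPN1-17ala for days 6 over 2 and 11 over 6, and 12, 3 and 10 within control. Of all genes they called 0.696%, 2.22% and 4.92% for the changes, 3.66% and 7.44% within PABPN1-17ala, and 3.26%, 2.83% and 13.8% within control. Cy3 arrays alone gave 2 at day 2, 12 at day 6, 5 for the change in effect between days 2 and 11, 1 and 11 within PABPN1-17ala for days 6 over 2 and 11 over 6, and 1, 2 and 6 within control. Of all genes they called 1.63% for this change, 4.11% and 4.07% within PABPN1-17ala, and 2.09%, 2.2% and 16.2% within control. The members called at days 6 and 11 were also called in these fits, which for a single dye follows largely from the rule on the larger p. All genes were called more often too: at days 2, 6 and 11, in either direction, 4.05%, 5.20% and 9.80% of them in 1 fit, 3.84%, 4.91% and 11.0% with assumed pairs, 2.20%, 2.73% and 12.4% with Cy5 and 2.21%, 3.07% and 3.20% with Cy3 arrays, against 0.95%, 1.60% and 1.18% by the rule used in the report.

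In other fits only the conditions of a contrast were kept, and the spread was estimated from these alone. Such fits called 0 members at day 2, 17 at day 6 and 0 at day 11. Of all genes they called 0.326%, 3.5% and 0% at these days, so at day 11 no gene at all passed. They called 2 and 0 members for the changes in effect from day 2 to days 6 and 11. Within PABPN1-17ala they called 5, 0 and 4 for days 6 over 2, 11 over 6 and 11 over 2. Without moderated variances they were 0, 4 and 4 at days 2, 6 and 11, 0 for the change in effect between days 2 and 11 and 0 within PABPN1-17ala for day 11 over 6. After quantile normalization they were 18 at day 6 and 4 at day 11, 2 for the change in effect between days 2 and 6, 0 within PABPN1-17ala for day 11 over 6, and 1 (lower) within control for day 6 over 2. With each array centred on its median, RpL9 was no longer called for the change in effect between days 2 and 11, which left 0. At a threshold of 0.01 the counts were 0, 3 and 4 at days 2, 6 and 11, 13 in the mean over the days, 0 for the change in effect between days 2 and 11 and 0 within PABPN1-17ala for day 11 over 6. In these settings 0% to 3.50% of all genes were called at a single day. For the other contrasts counted here 0.0435% to 2.45% of all genes were called. The causes of these differences were not tested.

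Leaving out 1 array in turn gave 0 to 1 members called at day 2, 4 to 5 at day 6, 4 to 20 at day 11 and 17 to 24 in the mean over the days. The counts of this paragraph are given without the share of all genes called in the same fits. For the changes in effect it gave 0 to 0 between days 2 and 6, 0 to 1 between days 6 and 11 and 0 to 13 between days 2 and 11. Within PABPN1-17ala it gave 0 to 0 for day 6 over 2, 0 to 14 for day 11 over 6 and 16 to 20 for day 11 over 2, and within control 0 to 0 for each pair of days. PABPN1-17ala replicate 4 at day 11, the array with low ratios, gave the highest of these: without it 20 members were called at day 11, with all 15 among them, 13 for the change in effect between days 2 and 11 and 14 for day 11 over 6. At day 11, 5 were called when control replicate 4 was left out, 4 when PABPN1-17ala replicate 5 was, and 5 when PABPN1-17ala replicate 6 was. For day 11 over 6 within PABPN1-17ala, 1 was called without replicate 1 of day 6, and 0 without any other array of day 6 or without replicates 1, 2, 5 or 6 of day 11. The change in effect of RpL9 between days 2 and 11 was not called without control replicates 1, 4, 5 or 6 of day 2 or 4 or 6 of day 11, or PABPN1-17ala replicates 2, 4, 5 or 6 of day 2 or 1, 5 or 6 of day 11. At day 6, 4 were called without control replicates 1, 2, 3 or 5 or PABPN1-17ala replicates 2, 3 or 6. RpL27 was not called at day 2 without control replicates 1, 2, 3 or 5 or PABPN1-17ala replicates 2, 3 or 5.

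Arrays of the same replicate number in different conditions correlated between -0.21 and 0.29 in their deviations from condition means. Arrays of different numbers, and Cy5 with Cy3 arrays of a condition, were not compared in this way. Whether the numbers pair arrays is therefore not known. With the replicate number as a block, 5 members were called for day 11 over day 6 within PABPN1-17ala instead of 3, and the counts were 1 at day 2, 6 at day 6, 16 at day 11 and 22 in the mean over the days. Of all genes this fit called 0.943% for day 11 over day 6 within PABPN1-17ala. For genotype it called 0.95%, 1.58% and 1.2% of all genes at days 2, 6 and 11, and 3.18% in the mean. Signal over background is not known for these ratios, so genes near 0 cannot be told from probes with little signal.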
